A study of Caenorhabditis elegans with 357 samples.

Results

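The genes fbxa-6, npr-30, nhr-80, H10E21.1, H10E21.4 and H10E21.5 are the 6 listed genes nearest to the left end of chromosome III of Caenorhabditis elegans. They were chosen by name from 19397 gene symbols because earlier work on these files had found reads of them in tph-1 mutants and next to none in the wild type. The levels that chose them were the RPM (a gene's reads scaled to the same number of reads in every library) in both strains, so the strain difference of these 6 genes is described here without a test. What the choice did not use is tested: the course of each gene along the L4 stage within the mutant, the spread between sets of animals, and how the genes vary together.

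nhr-80 encodes a nuclear hormone receptor of the HNF4-like group, which in C. elegans works with the related receptor NHR-49 to drive transcription of the desaturase genes fat-5, fat-6 and fat-7. These enzymes put the first double bond into saturated fatty acids and so supply oleic and palmitoleic acid. npr-30 belongs to the family of neuropeptide receptors, which are G protein-coupled receptors. fbxa-6 belongs to the F-box A family, a large C. elegans family whose F-box domain links proteins to ubiquitin ligase complexes. The other 3 genes are listed by their sequence names and no role is given to them here.

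Each library was made from the polyA RNA of 1 animal in L4, the last larval stage, and is labelled with the minutes from the start of L4 to collection. The wild-type animals were of strain N2 and covered 10.7 to 599.2 min, with 49 animals in an early window that ended at 200 min, 77 in a late window that began at 400 min and 67 in between. The 164 mutants were of strain MT15434, which carries the mg280 allele of tph-1, the gene for the tryptophan hydroxylase of serotonin synthesis, and covered 9.6 to 596.0 min, with 47, 70 and 47 animals in the same windows. Animals of both strains grew from the egg in separate arenas on UV-killed OP50 bacteria, were imaged there and were cut up whole for lysis. All mutants are 1 strain, so the tph-1 allele and any other difference between MT15434 and N2 cannot be told apart. By a number in the titles that the labels do not define, N2 has 8 sets of animals and tph-1 has 4. Each set holds 1 strain, so set and strain cannot be told apart within a set.

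An N2 library held 587469 to 11544404 reads in genes, with a median of 2922062, and a tph-1 library 437993 to 5175666, with a median of 1764815. 1 read was thus worth 0.0866 to 1.70 RPM in N2 and 0.193 to 2.28 RPM in tph-1. Summed markers of intestine, hypodermis, pharynx muscle, body-wall muscle, neurons and sperm had a median above 45 RPM in both strains. The tph-1 gene itself had a mean of 3.92 ± 4.12 RPM (SD over animals) in N2 and 2.79 ± 3.26 RPM in the mutant, a log2 difference of -0.46 ± 0.23 (SE) with a limma adjusted p of 0.192 over the 12 sets. A level summed over the whole gene does not show which allele an animal carries.

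The 6 genes lie next to each other at the end of the chromosome, in a span of 22744 bases (WBcel235, Ensembl annotation). fbxa-6 (WBGene00008352) is annotated at III:1219-3097 on the minus strand and npr-30 (WBGene00019183) at III:3321-11955 on the plus strand. nhr-80 (WBGene00003670) occupies III:11985-14869 on the minus strand, so it runs towards npr-30, and 29 bases lie between their ends. H10E21.1 (WBGene00019182) is at III:15772-17339 on the plus strand, H10E21.4 (WBGene00019184) at III:17318-19675 on the minus strand and H10E21.5 (WBGene00019185) at III:20531-23962 on the minus strand. All 6 are annotated as protein-coding. H10E21.1 and H10E21.4 share 22 bases on opposite strands, and the use of strand in counting is not given in the sources used here, so reads from those bases are uncertain. The annotation has 1 further gene among them, cTel54X.2 at III:3278-3692, which overlaps the start of npr-30 on the same strand and is listed in neither table.

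Beyond the block the picture changed. H10E21.5 is followed by 11491 bases without an annotated gene, and the next gene, clp-10 (a calpain family gene, III:35454-38217), had reads in 168 N2 animals and 112 tph-1 animals. Its mean was 2.09 ± 2.69 RPM (SD) in N2 and 1.22 ± 1.50 RPM in tph-1. The collagen gene col-88 had 443 RPM in N2 and 283 RPM in tph-1. The next 4 listed genes also had similar means in both strains: 2.01 and 2.64 RPM for btb-5, 81.8 and 78.3 RPM for pck-1 (phosphoenolpyruvate carboxykinase), 14.5 and 13.1 RPM for spt-4, and 6.03 and 7.19 RPM for attf-3, in N2 and tph-1 in that order.

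**Figure D1:**
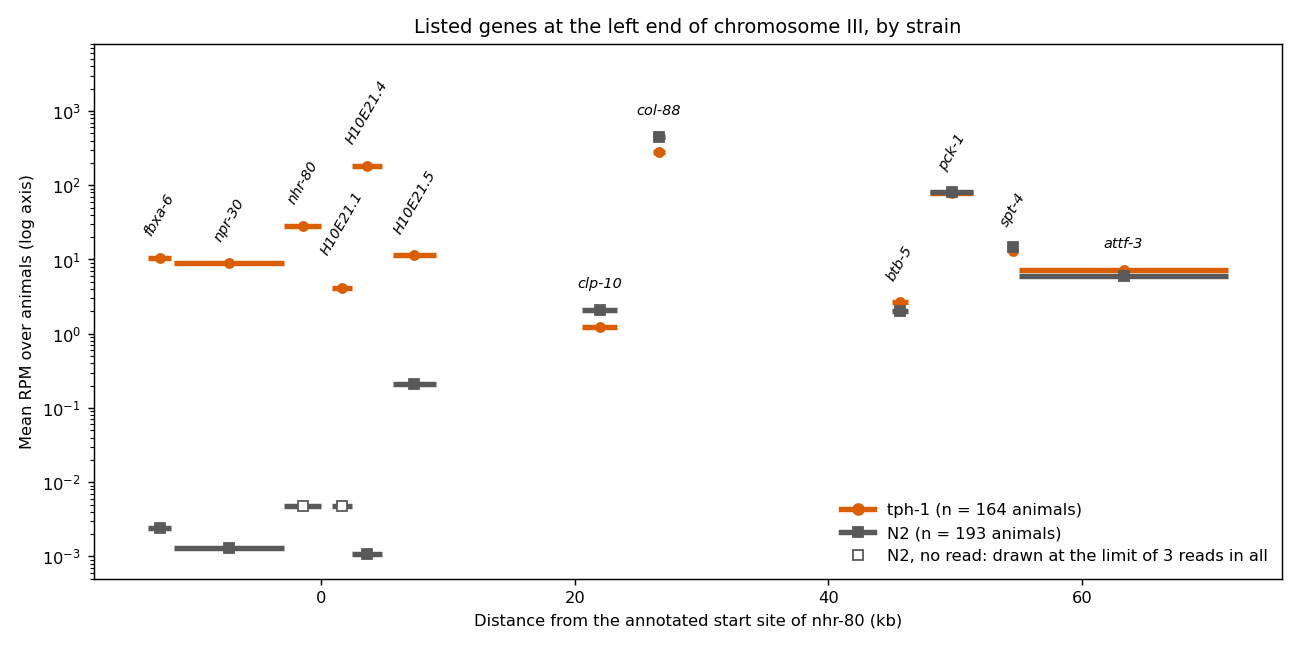
Mean RPM on a log axis of each listed gene at the left end of chromosome III, against its distance in kb from the annotated start of nhr-80. Bars span each gene, orange for tph-1 and grey for N2 animals, and open squares are genes without an N2 read, drawn at the limit of 3 reads over all N2 animals. The strains are far apart for the 6 genes on the left and close together from clp-10 onward.

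In N2 the 6 genes were at or near 0 reads. Among 625136500 N2 reads there was no read of nhr-80 or H10E21.1, which allows up to 0.00480 RPM over the strain as a whole (3 reads). There was 1 read of npr-30, 1 of H10E21.4 and 2 of fbxa-6. H10E21.5 had reads in 66 N2 animals, at most 10 reads and 2.74 RPM in an animal, and 0.235 RPM over the pooled reads. Among 316531433 tph-1 reads there were 9226 of nhr-80, 1245 of H10E21.1, 2449 of npr-30, 66468 of H10E21.4, 3257 of fbxa-6 and 3166 of H10E21.5. Reads here carry no molecular identifiers, so limits and intervals on reads cover counting error only.

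Over the pooled reads, nhr-80 was at least 6074-fold higher in tph-1 and H10E21.1 at least 820-fold higher, both against the limit of 3 reads in N2. The ratio for H10E21.5 was 42.5 (95% interval 36.0 to 50.5, counting error only). Its pooled N2 level went from 0 RPM in set 6 to 0.496 RPM in set 2, a spread between sets that the interval leaves out. For the genes with 1 or 2 N2 reads the intervals are wide: 890 to 26569 for fbxa-6, 867 to 191115 for npr-30 and 23560 to 5185031 for H10E21.4. The RNA is from whole animals, so fewer cells that express a gene and less RNA per cell cannot be told apart. RNA reads do not show whether the N2 animals carried this stretch of the chromosome; whether it was missing from their genome was not tested.

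Single animals separated the strains fully for 2 genes. nhr-80 had reads in all 164 tph-1 animals, with a lowest value of 6.50, a median of 25.6 and a highest of 82.3 RPM, and fbxa-6 also had reads in all 164, from 1.38 through a median of 8.78 to 34.9 RPM. No tph-1 animal was at or below the highest N2 animal for either. npr-30 ranged from 0 to 56.9 RPM (median 5.92) with reads in 161 tph-1 animals, and H10E21.1 from 0 to 14.2 RPM (median 3.18) with no read in 7. H10E21.4 ranged from 0 to 1081 RPM (median 12.2) with no read in 10, and H10E21.5 from 0 to 68.5 RPM (median 8.50) with no read in 1. At or below the highest N2 animal there were 3 tph-1 animals for npr-30, 7 for H10E21.1, 10 for H10E21.4 and 22 for H10E21.5.

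Compared per length of exon, the mean level in tph-1 was highest for H10E21.4 at 198 ± 306 RPM per kb (SD, n = 164), though its median was 13.2. nhr-80 followed at 15.6 ± 7.15, fbxa-6 at 8.37 ± 5.05, H10E21.5 at 6.86 ± 5.93, npr-30 at 5.20 ± 5.23 and H10E21.1 at 3.05 ± 2.18 RPM per kb. From fbxa-6 down, each mean lay within 1 SD of the next. That SD is the spread between single animals and does not measure how well a mean over 164 animals is known. The order of these 4 genes was not tested.

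Outside the block, 1 gene came near to this strain difference. Of 17347 genes with a mean of at least 1 RPM in tph-1, 5 had an N2 mean below 1% of it, and all 5 were in the block. Of these genes, 7 fell below 5%: the 6 of the block, with H10E21.5 at 1.85%, and the desaturase gene fat-7 at 1.96%. The next in order was clec-47, a C-type lectin gene, at 11.4%. In the other direction, none of 16132 genes with at least 1 RPM in N2 had a tph-1 mean below 5% of it.

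Within tph-1, 5 of the 6 genes were higher early than late in L4, and H10E21.4 ran the other way. The call along the minutes asked for a Benjamini-Hochberg adjusted p under 0.05 over all 14942 genes tested and a fitted curve, with set as a covariate, that ranged over at least 1 log2 unit. All 6 genes passed it, but so did 75.1% of all genes tested. After rescaling the libraries by their median gene ratio, 2 of the 6 passed, H10E21.4 and H10E21.5, and without set 3 the curve of H10E21.1 ranged over 0.91 log2 units and missed the call. With a pseudocount of 5, fbxa-6 at 0.89 and H10E21.1 at 0.65 missed it too. The median gene tested also fell in RPM along the stage, by 0.69 on the log2 scale from the early window to the late one. Rescaling raised that difference by 0.56. The fall of the 5 genes is therefore read below against the median gene.

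**Figure D2:**
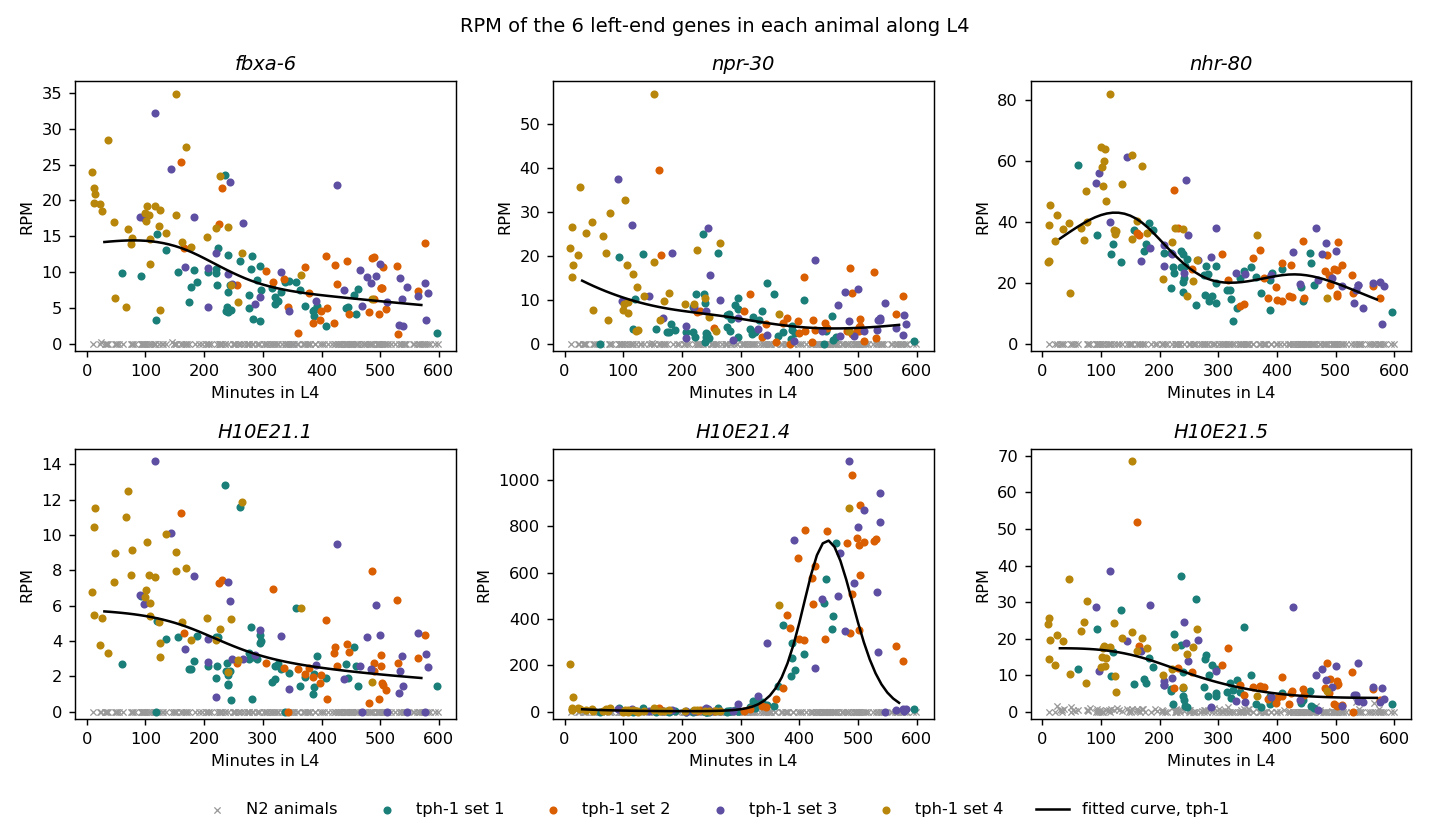
RPM of each gene against minutes in L4, 1 point per animal: grey crosses for N2 animals and coloured points for the 4 tph-1 sets, with the fitted tph-1 curve in black. The curves of fbxa-6, npr-30, nhr-80, H10E21.1 and H10E21.5 are highest between 30 and 120 min. That of H10E21.4 peaks at 450 min and is at 165 RPM by 530 min, whereas its median is highest at 500 to 550 min (734 RPM). N2 is on or near the axis, at up to 2.74 RPM for H10E21.5.

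H10E21.5 had the steepest fall. In the 47 early tph-1 animals it ranged from 5.43 through a median of 17.7 to 68.5 RPM, in the 70 animals of the middle window from 1.32 through 6.90 to 37.02 RPM, and in the 47 late animals from 0 through 5.05 to 28.5 RPM. Most early animals were above most late ones, but the windows overlapped. The late minus early difference was -1.66 ± 0.23 on the log2(RPM + 1) scale (SE; limma adjusted p = 4.90e-11) and -1.15 after rescaling. The median was lower late in every set, going from 12.0 to 2.31 RPM in set 1, from 34.95 to 5.69 in set 2, from 24.02 to 5.58 in set 3 and from 17.9 to 5.62 in set 4. Of these, the early median of set 2 is from 2 animals and the late value of set 4 from 1.

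npr-30, the neuropeptide receptor gene, also passed the late against early call. Its early values ranged from 0 through a median of 12.9 to 56.9 RPM and its late values from 0 through 3.90 to 19.02 RPM, so that the windows overlapped over the whole late range. The log2 difference was -1.05 ± 0.27 (limma adjusted p = 0.000307), -0.54 after rescaling (adjusted p = 0.0493) and -0.98 without set 3, short of the size the call asks for in both cases. Set medians went from 3.36 to 1.44 RPM in set 1, from 29.7 to 3.90 in set 2, from 15.8 to 5.25 in set 3 and from 15.8 to 2.81 in set 4. The early median of set 2 is from 2 animals and the late value of set 4 from 1. Counted over the list, 2 of the 6 genes were lower late, against 23% of all genes tested, and 1 was higher late, against 9.68%. The median difference was -0.93 for the 6 genes and -0.69 for all genes tested.

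nhr-80 reached its highest fitted level at 120 min. Early animals ranged from 16.7 through a median of 38.1 to 82.3 RPM, middle animals from 7.35 through 23.1 to 53.99 RPM and late animals from 6.50 through 19.6 to 37.9 RPM. All but the upper part of the early range overlapped with the later windows. The late minus early difference was -0.95 ± 0.12 (limma adjusted p = 1.69e-12), just under the size of 1 that the call asks for, and -0.36 after rescaling (adjusted p = 0.00880). The median was lower late in each set, at 19.2 against 34.3 RPM in set 1, 22.6 against 36.1 in set 2, 19.8 against 46.4 in set 3, and 15.2, from 1 late animal, against 40.2 in set 4. Only 2 animals gave the early median of set 2. Between animals of like minutes and set nhr-80 varied least of the 6, with a residual SD of 0.41 log2 units. It also had the most reads per tph-1 animal, with a median of 44, against 6 for H10E21.1 and between 10.5 and 18 for the other 4.

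fbxa-6 and H10E21.1 differed between the windows by less than the call asks for. fbxa-6 ranged from 3.26 through a median of 16.4 to 34.9 RPM early and from 1.38 through 7.31 to 22.2 RPM late, a log2 difference of -0.91 ± 0.17 (limma adjusted p = 5.66e-07). H10E21.1 ranged from 0 through 6.50 to 14.2 RPM early and from 0 through 2.58 to 9.51 RPM late, a log2 difference of -0.88 ± 0.19 (limma adjusted p = 1.11e-05). Both had overlapping windows, and both had a lower late than early median in each of the 4 sets. However, set 2 held 2 early animals and set 4 held 1 late animal. After rescaling the differences were -0.36 and -0.43. In edgeR's quasi-likelihood test on the recovered reads both passed the call, at -1.01 and -1.07. That test scaled libraries by read totals, much as RPM does, and was not run on rescaled libraries.

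H10E21.4 was low until 300 min and high from 350 to 550 min. In steps of 50 min its median in tph-1 was 13.2 RPM below 50 min, between 3.13 and 3.86 RPM in every step from 50 to 300 min, 23.01 RPM from 300 to 350 min, 298 from 350 to 400, 479 from 400 to 450, 619 from 450 to 500 and 734 from 500 to 550 min. It was 11.1 RPM in the 7 animals at 550 min or later. No animal between 200 and 300 min reached 100 RPM, the earliest after that to do so was collected at 344.6 min, and all 26 animals from 400 to 500 min were between 188.6 and 1081 RPM. The oldest animal at 100 RPM or more was collected at 575.9 min. The late minus early difference was 5.26 ± 0.57 on the log2 scale (SE; limma adjusted p = 1.66e-15) and 5.83 after rescaling. Its median was higher late in each set, at 412 against 1.37 RPM in set 1, 629 against 12.2 in set 2, 493 against 5.09 in set 3, and 881, from 1 animal, against 6.75 in set 4. Only 2 animals gave the early median of set 2.

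A few animals stood apart from that course. The youngest tph-1 animal, at 9.6 min in set 4, had 204 RPM of H10E21.4, and the next highest animal below 100 min had 61.4 RPM. Among the 7 oldest animals, the 2 of set 2 were at 284 RPM (564.1 min) and 218 RPM (575.9 min), whereas the 5 of sets 1 and 3 were between 1.62 and 12.6 RPM, at 564.0 to 596.0 min. No read was found in 10 animals, collected between 60.2 and 546.0 min, and 9 of these were younger than 250 min. The middle window was lower than the mean of both ends by -1.38 ± 0.38 on the log2 scale (limma adjusted p = 0.00187), and H10E21.4 was the 1 gene of 6 to pass that call, which 2.42% of all genes passed in that direction and 2.9% in the other. edgeR gave 0.34 for that contrast, without a call, and without set 4 the difference was -1.06, also without a call. Minutes and set together took up 83.7% of the variance of H10E21.4, 58.1% of that of nhr-80 and between 30.7% and 44.3% for the other 4 genes.

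The tph-1 sets differed by less than 1 log2 unit in each of the 6 genes. None of the 6 genes passed the call between the 4 tph-1 sets, an adjusted p under 0.05 with set terms at least 1 log2 unit apart, which 2.36% of all genes passed. limma's adjusted p was nonetheless under 0.05 for all 6 (0.00252 to 0.0471), with ranges from 0.35 log2 units for nhr-80 to 0.92 for H10E21.4. Set 1 was lowest for each of the 6, between 0.21 and 0.57 log2 units below the mean of the 4 sets. Set 1 held 10 early, 37 middle and 7 late animals and set 4 held 29, 8 and 1, so the sets also differ in how well they cover the stage.

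Around those curves, the 15 pairs of the 6 genes, taken as a whole, varied together about as much as pairs of any genes did. Residuals after minutes and set were compared over the 164 tph-1 animals in 15 pairs, each gene of a pair being read from the same library. Their median Pearson r was 0.28, against 0.26 over all pairs of the 14942 genes tested, of which the middle 90% lay between -0.16 and 0.68. The median was 0.41 for the 10 pairs without H10E21.4 and 0.18 for the 5 with it. An adjusted p under 0.05 was reached by 12 of the 15 pairs, the lowest of them at an r of 0.16, and 64.1% of all pairs of tested genes had at least that r. The closest pair was npr-30 and H10E21.5, with a Pearson r of 0.68 and a Spearman rho of 0.68. The r was 0.71 without the 2 animals farthest from the median and between 0.60 and 0.75 within the sets. fbxa-6 and npr-30 had an r of 0.57 (rho 0.58; 0.54 without 2 animals), H10E21.1 and H10E21.5 an r of 0.53 (rho 0.53; 0.55 without 2 animals) and fbxa-6 and H10E21.5 an r of 0.48 (rho 0.44; 0.48 without 2 animals). fbxa-6 and H10E21.1 had an r of 0.38 (rho 0.38), which was 0.07 within set 4. The two-sided permutation p of these 5 pairs was 1e-05 for both coefficients, the smallest that 100000 permutations can give, and 2.14e-05 after Benjamini-Hochberg adjustment over the 15 pairs. For npr-30 and H10E21.5, 19.9% of the 14936 genes outside the block had at least that r with npr-30 and 14.3% with H10E21.5. For fbxa-6 and npr-30, 12 genes had at least that r with fbxa-6 and 39.1% of genes with npr-30. For H10E21.1 and H10E21.5, 3 genes had at least that r with H10E21.1 and 39.5% of genes with H10E21.5.

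The r of nhr-80 with its neighbours was lower. It was 0.37 with fbxa-6 (rho 0.37, permutation adjusted p 2.14e-05) and 0.16 with H10E21.1 (rho 0.19, permutation adjusted p 0.0465). With npr-30 it was 0.14 (rho 0.15, permutation adjusted p 0.0792) and with H10E21.5 0.10 (rho 0.11, permutation adjusted p 0.216). nhr-80 and npr-30 run towards each other on opposite strands, with 29 bases between their ends. Of the 14936 genes outside the block, 1.43% had at least the r of fbxa-6 with nhr-80. The share was 21.4% for the r of H10E21.1, 28% for that of npr-30 and 45.5% for that of H10E21.5. Seen from the other gene of each pair, the share was 36.4% with fbxa-6, 74.2% with H10E21.1, 83.5% with npr-30 and 84.3% with H10E21.5. Of the 10 pairs without H10E21.4, 7 were positive in every set. The 5 pairs with H10E21.4 had r from 0.01 to 0.28, and 1 of them, the pair with H10E21.1, was positive in every set. The fitted curve of H10E21.4 falls after 450 min while its medians still rise, so its residuals also hold part of its course.

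The desaturase genes fat-5, fat-6 and fat-7, for which nhr-80 is known, had reads in N2, where nhr-80 had none. A list of 22 genes of fatty acid desaturation, elongation, synthesis and their regulators, of which 21 had enough signal for the test, was chosen with earlier results of these data known. Over the 12 sets 2 genes of the list were higher in tph-1, against 0.308% of the 14295 genes tested, and 1 was lower, against 0.154%. The list's median difference was -0.23 and that of all genes -0.10 on the log2 scale; rescaling shifted the median gene by 0.22.

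fat-7, a stearoyl-CoA desaturase gene, was the extreme case. In N2 it ranged from 0 through a median of 0.984 to 15.2 RPM and in tph-1 from 5.66 through 51.6 to 285 RPM. The ranges overlapped between 5.66 and 15.2 RPM, and all tph-1 animals in that overlap were of sets 3 and 4. fat-7 was higher in tph-1 by 4.24 ± 0.37 log2 units (SE over 12 sets; limma adjusted p = 8.24e-07). fat-6, its close relative, ranged from 6.71 through 87.1 to 743 RPM in N2 and from 55.1 through 335 to 1090 RPM in tph-1, a difference of 1.49 ± 0.27 (limma adjusted p = 0.0109). The ranges of fat-6 overlapped widely, and its adjusted p was 0.0723 without set 1 of tph-1 and 0.0592 with camera as a covariate. fat-6 and fat-7 are close copies, so how the counting split reads between them is uncertain.

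The other genes named with nhr-80 differed less. fat-5, a palmitoyl-CoA desaturase gene, had a median of 6.94 RPM in N2 and 21.8 in tph-1, a log2 difference of 1.12 ± 0.40 with a limma adjusted p of 0.113. The partner receptor gene nhr-49 had medians of 51.1 and 38.9 RPM (-0.42 ± 0.17; limma adjusted p = 0.140), and mdt-15, which encodes a Mediator subunit that acts with NHR-49, had 122 and 98.02 RPM (-0.31 ± 0.13; limma adjusted p = 0.148). acs-2, an acyl-CoA synthetase gene of fatty acid oxidation, was the 1 gene of the list called lower in tph-1. Its median was 10.1 RPM in N2 and 5.998 in tph-1, with a log2 difference of -1.03 ± 0.20 (limma adjusted p = 0.0183), which was -0.82 with an adjusted p of 0.0959 after rescaling; it also lost its call without set 1, 2 or 3 of tph-1 and with no filter on low genes.

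The means of the desaturase genes along L4 were as follows. Mean fat-6 in N2 was 352 RPM early, 124 in the middle and 59.1 late, and in tph-1 it was 430, 376 and 237 RPM. Mean fat-7 in N2 was 1.91, 1.67 and 0.844 RPM, and in tph-1 68.01, 93.97 and 41.5 RPM. Mean fat-5 in N2 was 21.5, 8.25 and 4.96 RPM, and in tph-1 16.4, 30.4 and 27.997 RPM. No test of the difference in time course was made. The strain differences given above rest on 1 spline of minutes shared by both strains, so each is a single value for the whole stage. Where the courses differ, as in the means of fat-5, that value also depends on which minutes each set covered. Within tph-1, 14 of the 21 list genes were lower late and 0 were higher, with a median of -1.10 against -0.69 for all genes; after rescaling, 4 were lower. Among the 14 were fat-6 at -1.22 ± 0.14 and fat-7 at -1.01 ± 0.17 (limma adjusted p 1.05e-13 and 6.70e-08). Both lost the call after rescaling (-0.61 and -0.42) and without the set covariate, where fat-6 was at -0.94 and fat-7 at -0.11 with an adjusted p of 0.714. fat-7 also missed the size without set 1 (-0.86), without set 2 (-0.96) and with a pseudocount of 5 (-0.93). fat-5 was at -0.25 ± 0.21 (limma adjusted p = 0.269) and turned to 0.33 after rescaling.

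fat-7 and fat-5 passed the call between tph-1 sets and nhr-80 did not, though the difference between these genes was not itself tested. The median of fat-7 was 139.4 RPM in set 1, 58.9 in set 2, 16.4 in set 3 and 17.2 in set 4, and that of fat-5 was 38.2, 29.2, 10.8 and 8.55 RPM. Their set terms were 3.05 and 2.45 log2 units apart. nhr-80 had medians of 23.1, 22.7, 26.5 and 37.9 RPM, in the same order of sets, and was lowest in set 1 once minutes were in the fit. From animal to animal, residuals of nhr-80 had an r of 0.32 with fat-6 (rho 0.36; 0.34 without 2 animals; permutation adjusted p 0.0003 over 6 pairs), 0.18 with fat-5 (rho 0.16; adjusted p 0.0262) and 0.08 with fat-7 (rho 0.11; adjusted p 0.280). With mdt-15 it was 0.25 (rho 0.23, adjusted p 0.00330), with nhr-49 0.23 (rho 0.22, adjusted p 0.00548) and with fat-2 0.17 (rho 0.22, adjusted p 0.0365), all by permutation. Over all pairs of the 14942 genes tested the median r was 0.26. Of the 14936 genes outside the block, 21.4% had an r of at least 0.16 with nhr-80 and 1.43% an r of at least 0.37.

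**Figure D3:**
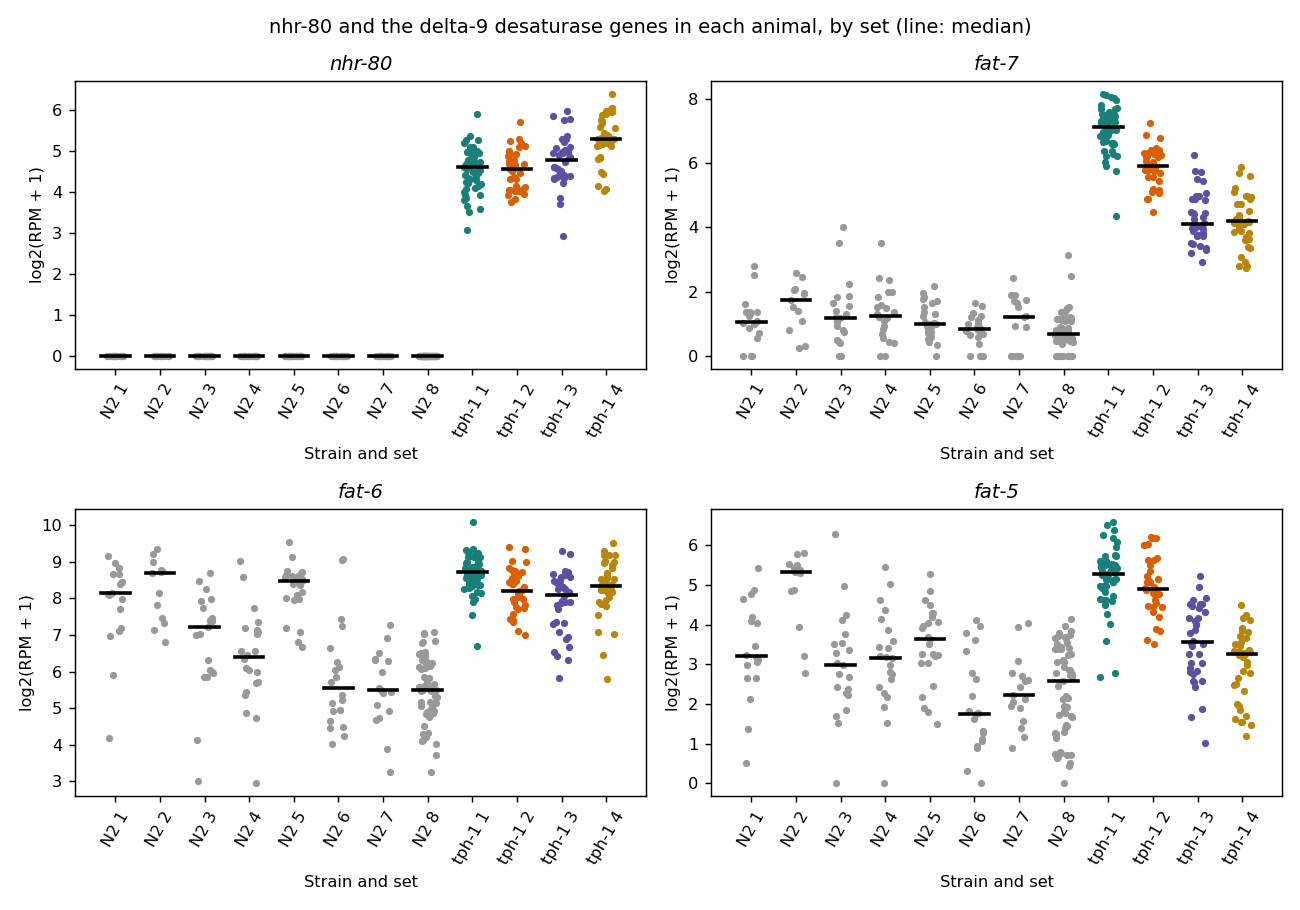
log2(RPM + 1) of nhr-80, fat-7, fat-6 and fat-5 in each animal, by strain and set, with a bar at the set's median. nhr-80 is at 0 in all N2 sets and has medians of 22.7 to 37.9 RPM in the 4 tph-1 sets, while the fat-7 median goes from 139.4 RPM in tph-1 set 1 to 16.4 RPM in set 3.

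For each gene of the block, the 3 genes most like it over the tph-1 animals were sought in the rest of the genome. Likeness was the Pearson r of log2(RPM + 1) over the 164 tph-1 animals among 14936 other genes, a description that includes the shared course along the minutes and the sets. npr-30 was most like egl-2 (an EAG-type potassium channel gene, r 0.89), wdfy-3 (0.89) and pde-3 (a phosphodiesterase gene, 0.89), and 1729 genes were closer to it than H10E21.5 (0.77), the closest of the block. H10E21.5 was most like T14B1.1 (0.88), aat-3 (an amino acid transporter gene, 0.88) and lrp-2 (a gene of the LDL receptor-related family, 0.87), with 1073 genes closer than npr-30 (0.77). nhr-80 was most like xdh-1 (xanthine dehydrogenase, 0.83), F58B4.5 (0.79) and C03A3.2 (0.78), and 260 genes were closer to it than fbxa-6 (0.65). fbxa-6 was most like kdin-1, itx-1 and T05F1.11 (each 0.77), with 99 genes closer than npr-30 (0.71). H10E21.1 was most like tlp-1 (a zinc finger gene, 0.70), lst-2 (0.69) and D1025.1 (0.69), and none of the 14936 was closer to it than H10E21.5 (0.70).

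H10E21.4 was most like ZK180.5 (r 0.96), grl-16 (a ground-like gene of the hedgehog-related family, 0.95) and R12E2.7 (0.95). Its closest gene of the block was npr-30 at an r of -0.19, and 7506 of the 14936 other genes were closer. In tph-1 the median of ZK180.5 went from 13.7 RPM at 200 to 300 min to 178 at 300 to 400, 7924 at 400 to 500 and 11559 at 500 to 600 min. In N2, where H10E21.4 had 1 read, ZK180.5 went from 3.75 to 367 and 8275 RPM over the first 3 of these steps and was at 24.9 RPM at 500 to 600 min. grl-16 had 8518 RPM in tph-1 and 8107 in N2 at 400 to 500 min, and R12E2.7 had 1895 and 2416 RPM. At 500 to 600 min, however, the medians of grl-16 were 9398 and 34.7 RPM and those of R12E2.7 were 3036 and 76.9 RPM, in tph-1 and N2 in that order. The highest N2 animals of that step still had 12543 RPM of ZK180.5, 11593 of grl-16 and 4873 of R12E2.7. Both strains held high and low animals in this step. From 540.5 min on, the highest grl-16 value was 1333 RPM in N2 and 4592 RPM in tph-1. That cut is none of the windows or steps used elsewhere, and it falls just after an N2 animal at 539.9 min with 7194 RPM. Earlier in the step grl-16 ranged from 11.5 to 11593 RPM in N2 and from 526 to 23408 RPM in tph-1. The minutes within the step were not matched between the strains. Neither their part in this difference nor the difference itself was tested. The N2 means of all 18 genes named for their likeness were between 73.5% and 164% of their tph-1 means. 1 N2 animal below 100 min had 8672 RPM of ZK180.5, 4998 of grl-16 and 3931 of R12E2.7, levels that no other animal below 300 min reached.

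**Figure D4:**
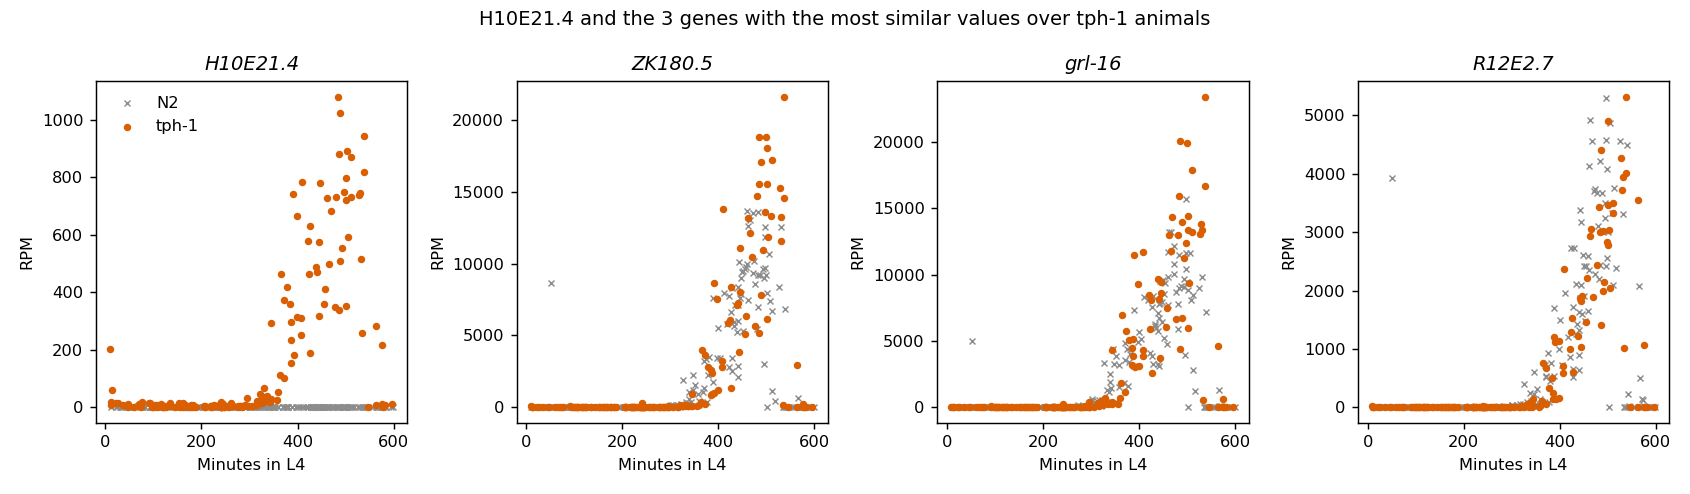
RPM against minutes in L4 for H10E21.4 and the 3 genes most like it over tph-1 animals, 1 point per animal, orange for tph-1 and grey crosses for N2. H10E21.4 climbs after 300 min in tph-1 and has 1 read in all of N2, while ZK180.5, grl-16 and R12E2.7 climb in both strains.

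The reads that N2 did have were mostly of H10E21.5 and mostly from young animals. H10E21.5 had a read in 34 of 49 early N2 animals (69.4%, exact 95% interval 54.6 to 81.7), 24 of 67 in the middle window (35.8%, 24.5 to 48.5) and 8 of 77 late ones (10.4%, 4.59 to 19.4). Depth went the same way, with a median of 4108493 reads early, 3084836 in the middle and 2179786 late. The pooled level was 0.399 RPM early, 0.206 in the middle and 0.0857 late. The tph-1 means of the same windows were 19.8, 9.43 and 5.91 RPM.

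Window and set are tied in N2, since sets 6, 7 and 8 hold no early animals. In the middle window, where both kinds of set have animals, 22 of 44 animals of sets 1 to 5 and 2 of 23 animals of sets 6 to 8 had a read of H10E21.5. The late animals of sets 1 to 5 had a read in 0 of 6, which allows a share of up to 45.9% (exact 95% interval), and those of sets 6 to 8 in 8 of 71. By set the share was 61.1% of 18 animals in set 1, 76.9% of 13 in set 2, 57.1% of 21 in set 3, 36.4% of 22 in set 4, 60% of 25 in set 5, 0% of 20 in set 6, 17.6% of 17 in set 7 and 12.3% of 57 in set 8. The part of set and of minutes in this difference was not tested.

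The few N2 reads of the other genes fell in animals that also had reads of H10E21.5. An animal of set 2 at 24.7 min had 1 read of fbxa-6 and 6 of H10E21.5. Another of set 2 at 144.7 min had 1 of fbxa-6, 1 of H10E21.4 and 3 of H10E21.5, and an animal of set 5 at 149.3 min had 1 of npr-30 and 2 of H10E21.5. These 3 animals, all from the early window, held every N2 read of fbxa-6, npr-30 and H10E21.4.

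**Figure D5:**
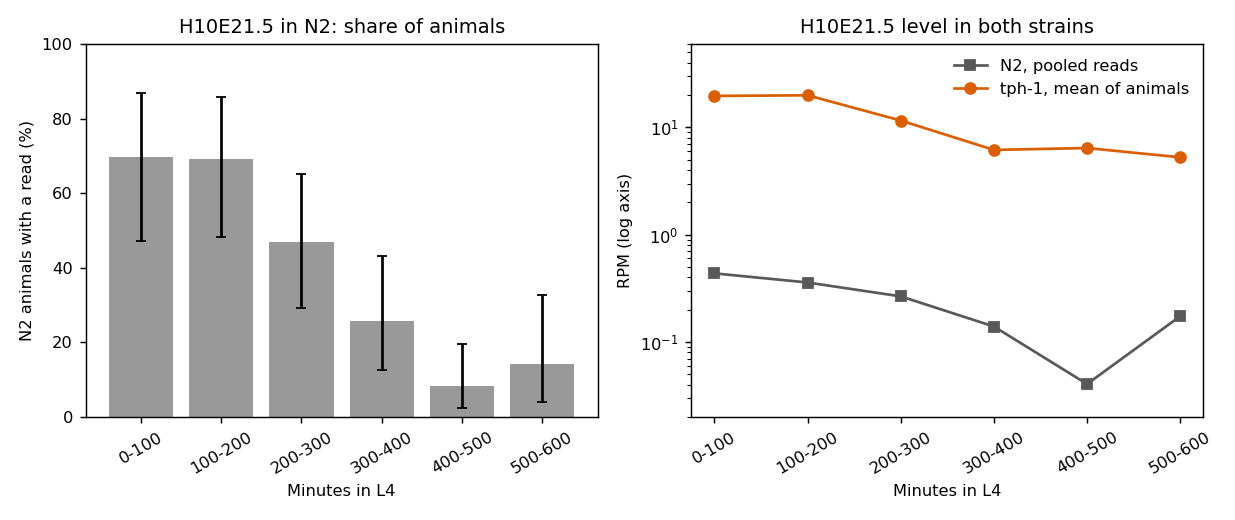
Left, share of N2 animals with a read of H10E21.5 by 100-min step of L4, with exact 95% intervals. Right, its level on a log axis, from pooled reads in N2 (grey) and as the mean of animals in tph-1 (orange): N2 goes from 0.436 RPM at 0 to 100 min to 0.0405 at 400 to 500 min and 0.174 after 500 min, and tph-1 from 19.7 to 5.27 RPM.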

How the data were processed

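PolyA RNA of single L4 animals was read with SMART-seq2, per the series' design text, and Nextera tagmentation, per the labels' protocols. The submitters' processing notes name STAR 2.7.9a as a tool; for build, annotation, counting and strand use the sources used here give nothing. The deposited values are RPM, 1 table per strain, taken here from the tables' names and from columns that all sum to the same total; 100% of the values came out as whole reads within 0.1. A gene in 1 table only was taken as 0 in the other. Positions are from Ensembl's WBcel235 annotation, which matched 18691 symbols to 1 gene each.

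Tests were limma 3.58.1 with trend (R 4.3.3) on log2(RPM + 1) over genes that reached 5 RPM in 10% of animals or more, adjusted by Benjamini-Hochberg. The log2 scale with a pseudocount of 1 understates changes of low genes. Within tph-1 a natural spline of minutes (4 degrees of freedom, read from 30 to 570 min) or the 3 windows were fitted with set as a covariate, called at an adjusted p under 0.05 and a size of at least 1 log2 unit. Strains were compared over 12 set intercepts, beside 1 spline of minutes shared by both strains, which assumes the same course in each. edgeR 4.0.16 on the recovered reads (scaled by read totals alone), other pseudocounts and filters, rescaled libraries, camera as a covariate and leaving out sets were the alternatives. Correlations used 100000 permutations (scipy 1.17.1). Fits were tested on simulated data. Named genes are the 6, the first 6 listed genes beyond them, the 3 most like each, and nhr-80's partners and targets with list genes that passed. The members, lists and rules were chosen with earlier results of these data known. Labels name each library as 1 animal, so p-values measure the spread between animals or sets.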

Additional observations from a re-analysis of the deposited data

Results flagged for a closer look

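Of 18 groups of set values tested for a set far from the rest, 2 held one; chance marks about 1 in 20 groups. H10E21.5 in tph-1 set 1 was at -0.37 log2 units from the mean of the 4 sets, with the other 3 between 0.09 and 0.17. fat-5 in N2 set 2 had an intercept of 4.53 on the log2(RPM + 1) scale, with the other 7 N2 sets between 2.32 and 3.24.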

How the results depend on the processing

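All 6 genes kept their direction from early to late under each alternative run, and H10E21.4 and H10E21.5 kept every call along the minutes. With libraries rescaled, the members called along the minutes fell from 6 to 2, all genes called from 11221 to 6061, and the desaturation genes called late against early from 14 to 4; fat-5 turned to 0.33 and nhr-49 to 0.0479. All genes called along the minutes were 6326 with a pseudocount of 5, and 5139 with a mean of at least 10 RPM, where fewer genes, npr-30 and H10E21.1 not among them, are tested. Late against early, 5 members in place of 3 were called without the set covariate, where fat-5 turned to 0.68, and 5 with edgeR. Without each set in turn, that count ran from 2 to 4, and the count along the minutes from 5 to 6. In the middle against both ends, H10E21.4 turned to 0.34 with edgeR, which called 0 members, and H10E21.5 to 0.0589 with camera as a covariate. Leaving out sets gave 0 members (without set 4) to 1 there, fbxa-6 from -0.26 to 0.0421 and H10E21.1 from -0.21 to 0.0101. Between tph-1 sets, 2 members were called with a pseudocount of 0.25, and 0 to 1 (without set 2) when sets were left out. The cause of these changes was not tested.

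Between strains, 3 desaturation genes were called, 8 with sets weighted by animals, and 1 (without tph-1 set 1) to 9 (without N2 set 7) when sets were left out, with 6 without N2 set 8. With sets 1 to 4 of each strain and the set number as a replicate block 12 were called, and 11 unblocked; same-numbered sets deviated with r of -0.04 to 0.17, so the numbers were not taken to pair the sets. Over all genes, 66 were called between strains, and 28 to 5234 under the alternatives (1546 without N2 set 7); between tph-1 sets 352 were called, and up to 1002. fat-7 kept its strain call under each, at 2.88 to 5.01. Depth limits H10E21.1 most, with a median of 6 reads per tph-1 animal.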
